A study of Homo sapiens with 16 samples.

Results

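HIST1H4H, a gene for histone H4, is 1 of the 9944 genes in the deposited mRNA table, where it was found by its symbol, and its values were followed through all 8 groups of HAP1 libraries. RefSeq now calls the gene H4C8. HAP1 cells, of wild-type genotype in every group, are nearly haploid and descend from KBM-7, a human leukaemia line. TT-chem-seq measured RNA made while cells took up 4-thiouridine (4-SU, 1 mM for the last 30 min): labelled RNA is biotinylated, pulled down and sequenced. The groups, with 2 libraries each, were cells given 1 µM BMH-21, an inhibitor of RNA polymerase I, for 1 h or 5 h; cells given 100 µM DRB, which blocks elongation by RNA polymerase II, for 1 h or 5 h; cells given 20 µM ML-60218, named in the labels as an inhibitor of RNA polymerase III, for 1 h or 5 h; labelled cells with no inhibitor (untreated); and cells with no inhibitor that received no 4-SU. Both libraries of a group are labelled as biological replicates, but no separate cultures are named, and the p-values therefore reflect only how far these libraries differ.

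Histone H4 is a core protein of the nucleosome, the unit in which DNA is wrapped. Many gene copies, grouped in clusters, encode nearly identical H4 proteins, and RNA polymerase II transcribes them mainly in S phase, when new DNA needs new nucleosomes. Their mRNAs end in a conserved stem-loop and not in a poly(A) tail, and most of these genes have no introns and are very short.

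The region counted as HIST1H4H lies on the minus strand of hg38 at chr6:26281055-26285534 and is 4480 bases long. The RefSeq gene H4C8 covers 26285126 to 26285534, the first 409 bases of that region, or 9.13% of it. The other 4071 bases lie beyond the 3′ end of the RefSeq gene, where RefSeq has no other gene, and the files give no values that separate them from the gene itself. The nearest RefSeq neighbours are H2BC10, an H2B histone gene, 7642 bases beyond the region's 3′ end, and LOC124901287, 145 bases from its 5′ end. RefSeq lists 15 H4 genes, and HIST1H4H is the 1 of them in the mRNA table, whose shortest region is 3002 bases. How reads that match several H4 copies were assigned is not given in the sources used here, so tags in the coding part are uncertain to that extent.

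The 250 bases before the RefSeq start, chr6:26285535-26285784 on the minus strand (RefSeq, GRCh38.p14), are shown as the annotated promoter of the gene; the files do not show where the RNA counted over the longer region starts. Capitals mark, from left to right, TGACGTCA (the cyclic AMP response element), GGTCCG (the core of the H4 promoter element) and TATAA (the core of the TATA box).
H4C8 promoter: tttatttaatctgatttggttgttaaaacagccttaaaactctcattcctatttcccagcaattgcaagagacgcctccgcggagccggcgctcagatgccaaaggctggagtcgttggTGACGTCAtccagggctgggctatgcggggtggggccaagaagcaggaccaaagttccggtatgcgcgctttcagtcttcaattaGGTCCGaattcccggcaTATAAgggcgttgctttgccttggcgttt
Both strands were searched, and none of the 3 matches overlaps another. TATAA stood 25 to 29 bases before the start, and 18.9% of 35116 RefSeq promoters of the same length hold it, among them 11 of 13 H4 promoters. GGTCCG stood 41 to 46 bases before the start, and 9.43% of all these promoters hold it, among them 12 of 13 H4 promoters. TGACGTCA stood 124 to 131 bases before the start, and 1.65% of promoters hold it, among them 2 of 13 H4 promoters. CCAAT (the CCAAT box, held by 11240 of 35116 promoters) and GGGCGG (the GC box, held by 14973) were not found in these letters.

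HIST1H4H was one of the densest regions of the whole table. In tags per kilobase of region, it ranked 1 of 9944 genes in every labelled library except replicate 1 of BMH-21 1 h and replicate 2 of DRB 1 h, where it ranked 2. Without 4-SU it ranked 4 and 9. Tags numbered 28858 and 9110 after BMH-21 for 1 h, 35604 and 20565.5 after BMH-21 for 5 h, 941 and 2209.5 after DRB for 1 h, and 633.5 and 548 after DRB for 5 h. They numbered 2586.5 and 2695 after ML-60218 for 1 h, 6292.5 and 4250.5 after ML-60218 for 5 h, 6368 and 9296.5 in untreated cells, and 800 and 299.5 without 4-SU. Tags end in 0.5 in places because each mate of a read pair counts as 0.5. These tags come from libraries whose mRNA tables hold 55845.5 tags (DRB 5 h replicate 2) to 6059928.5 tags (BMH-21 1 h replicate 1), between 0.264% and 6.45% of the library's tags, so they are compared below only after scaling.

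The share of mRNA-table tags that fell in HIST1H4H was 0.476% and 0.662% after BMH-21 for 1 h, and 1.17% and 0.873% after BMH-21 for 5 h. It was 0.550% and 0.760% after DRB for 1 h, and 0.966% and 0.981% after DRB for 5 h. It was 0.497% and 0.507% after ML-60218 for 1 h, and 0.664% and 0.566% after ML-60218 for 5 h. Against these stood 0.619% and 0.554% in untreated cells and 0.357% and 0.213% without 4-SU. The 5 h groups of BMH-21 and DRB thus lay wholly above untreated cells, ML-60218 1 h lay wholly below them, and the other 3 inhibitor groups overlapped them. The exact 95% binomial interval of a share is 0.901% to 1.07% for DRB 5 h replicate 2, which has the fewest tags of the labelled libraries, and 0.604% to 0.635% for untreated replicate 1. The first of these is wider than the gap between the 2 DRB 5 h libraries, and the second is narrower than the gap between the untreated libraries. Such intervals cover counting error only, since PCR reads without molecular identifiers are not independent molecules.

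In order of the mean share, from low to high, the groups were no 4-SU at 0.285% ± 0.102, ML-60218 1 h at 0.502% ± 0.00696, BMH-21 1 h at 0.569% ± 0.131, untreated at 0.587% ± 0.0464, ML-60218 5 h at 0.615% ± 0.0695, DRB 1 h at 0.655% ± 0.149, DRB 5 h at 0.973% ± 0.0110 and BMH-21 5 h at 1.02% ± 0.207 (SD, n = 2 each). The libraries of neighbouring groups in this order overlapped everywhere except between no 4-SU and ML-60218 1 h and between DRB 1 h and DRB 5 h.

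**Figure D1:**
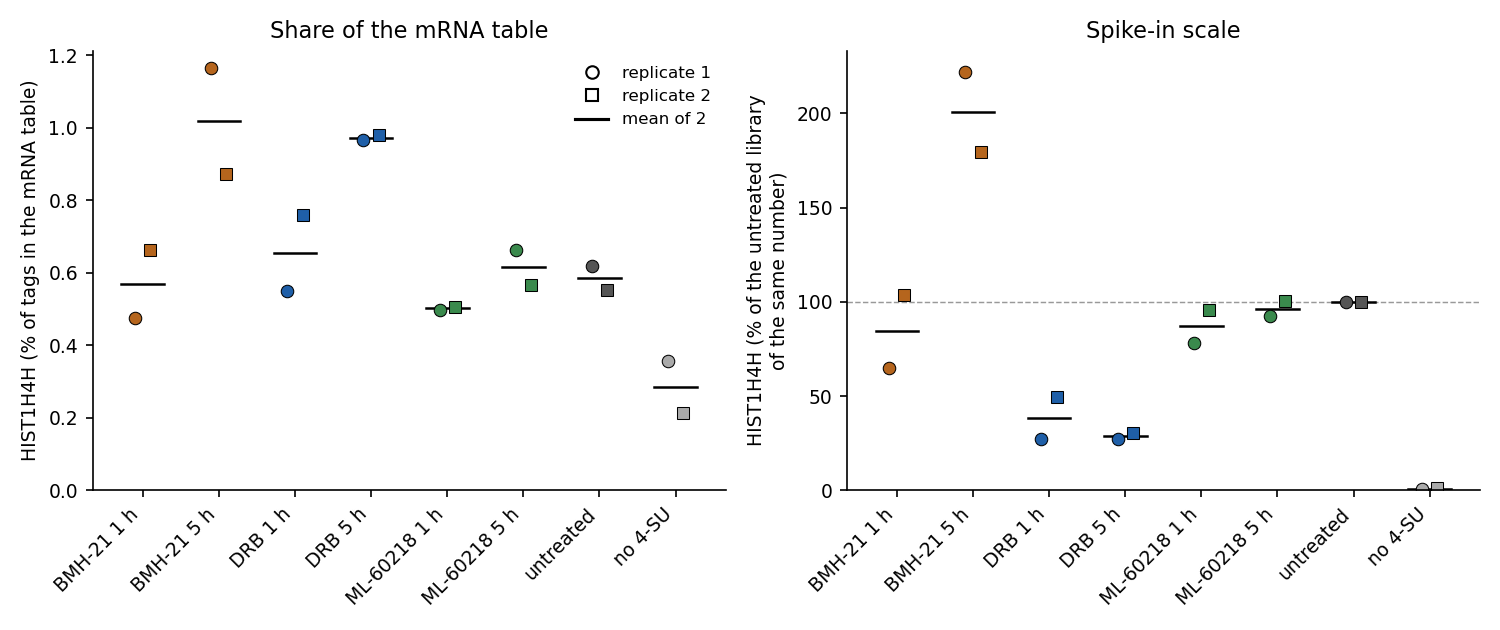
HIST1H4H in each of the 16 libraries, as a percentage of the tags in the mRNA table (left) and on the spike-in scale as a percentage of its number-matched untreated library (right). Circles are replicate 1, squares replicate 2 and bars the mean of 2; BMH-21 5 h stands at 222% and 180% on the right and DRB 5 h at 27.5% and 30.1%, while its share of mRNA tags is 0.966% and 0.981% on the left.

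Cells given 4-SU had far more HIST1H4H signal than cells without it, which sets the background of the pull-down. The spike-in scale uses the authors' deposited ratios to untreated cells. Per the labels' protocols, spike-in RNA was added per number of cells, but how the ratios were calculated from it is not given in the sources used here. On that scale, the libraries without 4-SU held 0.607% and 1.05% of the number-matched untreated library. Untreated cells lay above cells without 4-SU by a log2 difference of 6.91 ± 0.33 (SE, n = 2 each; limma, adjusted p = 9.09e-13), or 120-fold with a 95% interval of 73.6 to 195, and limma called 84.3% of the 5769 genes tested higher in this comparison. On the spike-in scale, the median difference among the 3216 genes with at least 50 tags in each untreated library was 5.28. That of HIST1H4H exceeded 98.3% of them. The constant added before taking logs caps this difference for genes with few untreated tags. HIST1H4H ranked 1 and 2 by tags in the untreated libraries, so this position partly reflects its tag number. With values relative to mRNA, it exceeded 74.9% of the same genes, and 54.0% of the 533 under 10 kb. Relative to other mRNA, the difference was a log2 value of 1.01 ± 0.26 (SE, n = 2 each; limma, adjusted p = 0.00817), where 41.4% of genes were called and 19.5% were called higher. That call was lost when no 4-SU replicate 2 was left out (0.57, adjusted p = 0.106) and when untreated replicate 1 was left out (0.94, adjusted p = 0.0611).

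After 5 h of BMH-21, HIST1H4H stood at 222% and 180% of the number-matched untreated library on the spike-in scale, a mean of 201% ± 30.0 (SD, n = 2), where untreated libraries are 100% by construction. After 1 h it stood at 65.0% and 104%, which spans the untreated level, with a mean of 84.4% ± 27.5 (SD, n = 2). The libraries of the 2 times did not overlap, and both 5 h libraries lay above the untreated value. In bulk RNA, a larger share of cells that make this RNA and more of it per cell cannot be told apart.

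The rise between the 2 times passed the test on the spike-in scale. BMH-21 5 h exceeded BMH-21 1 h by a log2 difference of 1.28 ± 0.22 (SE, n = 2 each; limma, adjusted p = 0.00629), or 2.43-fold with a 95% interval of 1.75 to 3.38, and limma called 10.2% of the genes tested, or 9.6% higher at 5 h and the rest lower. The median of the 3216 genes with at least 50 untreated tags was 0.46 in this comparison, and HIST1H4H exceeded 97.1% of them. The call was lost when either BMH-21 1 h library or BMH-21 5 h replicate 1 was left out, with estimates of 0.96 to 1.53 and adjusted p between 0.0564 and 0.144. Relative to mRNA, the same difference was 0.84 ± 0.20 (SE, n = 2 each) and did not pass limma (adjusted p = 0.150, 0.0181% of genes called), while edgeR's quasi-likelihood test, run on recovered tags, called it (adjusted p = 0.00264, 18.1% of genes called, 10.4% higher).

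Against untreated cells, the 5 h value after BMH-21 was higher in both libraries, but whether it was called depended on the test. Relative to mRNA the log2 difference was 0.76 ± 0.20 (SE, n = 2 each), 1.70-fold with a 95% interval of 1.24 to 2.32, and limma's adjusted p was 0.633. Limma called 0% of the 5532 genes tested in this comparison, with 195 genes at an unadjusted p under 0.05. On recovered tags, edgeR called HIST1H4H higher (0.77, adjusted p = 0.0222) among 3.36% of genes called and 1.61% called higher, and DESeq2 did so (0.76, adjusted p = 0.0164) among 224 genes called. The difference of HIST1H4H exceeded that of 99.3% of the 3216 genes with at least 50 untreated tags, 21 of which lay above it, and 99.1% of the 533 such genes under 10 kb.

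Scaled to the spike-in, the difference from untreated cells after 5 h of BMH-21 was 1.00 ± 0.22 (SE, n = 2 each), with a 95% interval of 1.44-fold to 2.77-fold, and did not pass limma (adjusted p = 0.196, 0.0362% of genes called). It passed when only the 4 libraries compared were fitted (limma, adjusted p = 2e-05) and with edgeR (adjusted p = 6.59e-05, 14.8% of genes called). The median of all genes tested was 0.22 on this scale. After 1 h the difference was -0.28 ± 0.22 on the spike-in scale (SE, n = 2 each; limma, adjusted p = 0.716) and -0.08 ± 0.20 relative to mRNA (limma, adjusted p = 1.00). Limma called 0% of genes after 1 h on either scale, with 313 at an unadjusted p under 0.05 relative to mRNA and 636 on the spike-in scale. By edgeR, 444 genes (8.03%) were called relative to mRNA and 1044 (18.9%) on the spike-in scale, and by DESeq2 475 relative to mRNA, HIST1H4H not among them in any of these.

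**Figure D2:**
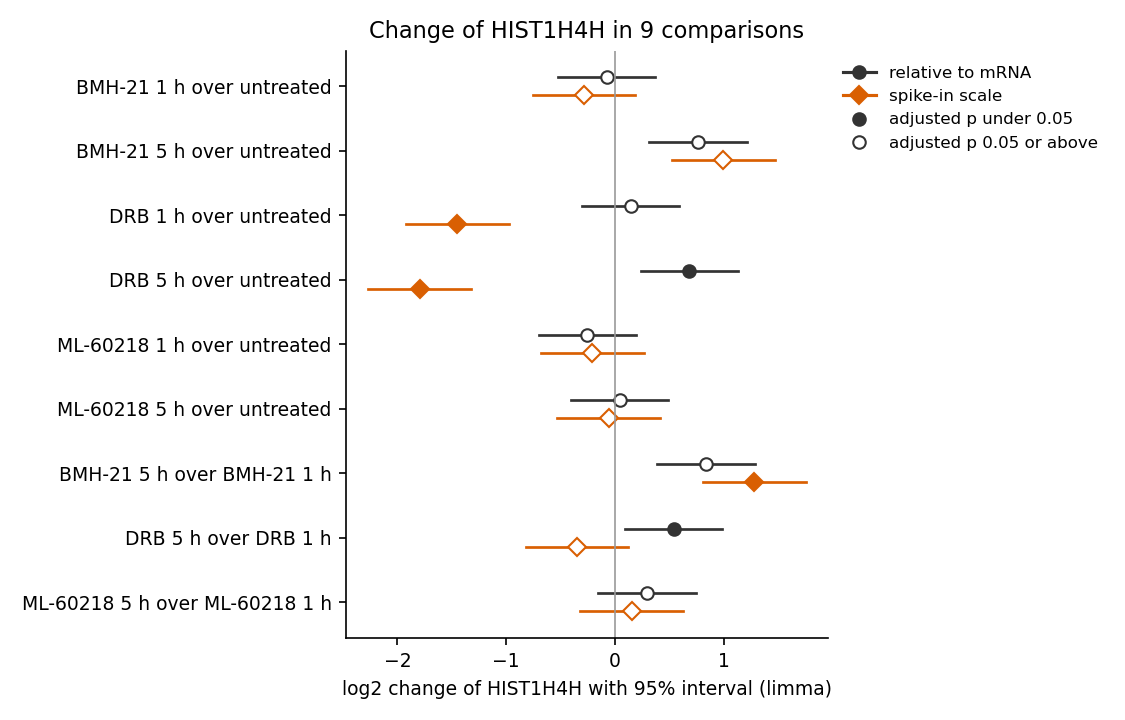
Log2 change of HIST1H4H (points) with 95% intervals (lines) from limma in 9 comparisons, relative to mRNA (circles) and on the spike-in scale (diamonds). Filled points passed an adjusted p of 0.05: with DRB 5 h over untreated the 2 scales gave opposite directions, 0.69 relative to mRNA and -1.80 on the spike-in scale, while with BMH-21 5 h over untreated both were above 0 and neither passed.

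HIST1H4H signal fell at both times of DRB on the spike-in scale, while its share of the remaining mRNA signal rose at 5 h. Scaled to the spike-in, it stood at 27.1% and 49.5% of the number-matched untreated library after 1 h, and at 27.5% and 30.1% after 5 h. All 4 DRB libraries lay below the untreated value, and the 2 times overlapped. The log2 difference from untreated cells was -1.45 ± 0.22 after 1 h (SE, n = 2 each; limma, adjusted p = 5.07e-05) and -1.80 ± 0.22 after 5 h (SE, n = 2 each; limma, adjusted p = 4.2e-06). Limma called 69.5% of genes lower after 1 h and 76.3% lower after 5 h, and a fall was thus the common outcome. The level at 5 h was 28.8% ± 1.90 of untreated (SD, n = 2), far above the 0.827% ± 0.311 measured without 4-SU.

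The fall of HIST1H4H lay toward the smaller end of those of short genes. Among the 533 genes under 10 kb with at least 50 untreated tags, the median log2 difference on the spike-in scale was -3.28 after 1 h of DRB and -3.36 after 5 h, and HIST1H4H lay above 93.2% and 87.8% of them. Among all 3216 genes with that many tags, the medians were -2.04 and -3.17, and HIST1H4H lay above 68.7% and 89.7%. These positions are descriptions with no test.

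Relative to mRNA, HIST1H4H after 5 h of DRB exceeded untreated cells by a log2 difference of 0.69 ± 0.20 (SE, n = 2 each; limma, adjusted p = 0.0121), 1.61-fold with a 95% interval of 1.18 to 2.20. Limma called 64.7% of genes in this comparison, 39.1% lower and 25.6% higher, or 10.9% higher among the genes with at least 50 untreated tags. The median over all genes tested was -0.43. The call was lost when untreated replicate 2 was left out (0.61, adjusted p = 0.0734), and scaling by library total turned the direction (-1.94). After 1 h the difference relative to mRNA was 0.14 ± 0.20 (SE, n = 2 each; limma, adjusted p = 0.595), where 43.9% of genes were called, 15.3% higher and 28.6% lower, while the median of the 533 genes under 10 kb was -1.85.

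The share of mRNA tags was higher after 5 h than after 1 h of DRB by a log2 difference of 0.54 ± 0.20 (SE, n = 2 each; limma, adjusted p = 0.0397), where limma called 58.7% of genes and 32.6% higher. Without DRB 1 h replicate 1 it was 0.26 (limma, adjusted p = 0.327), and the median of genes under 10 kb was 0.85. Scaled to the spike-in, the same pair differed by -0.35 ± 0.22 (SE, n = 2 each; limma, adjusted p = 0.198), where 54.4% of genes were called. The DRB 5 h libraries were the shallowest, with 65600 and 55845.5 tags in the mRNA table, and the part of depth in these values was not tested.

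**Figure D3:**
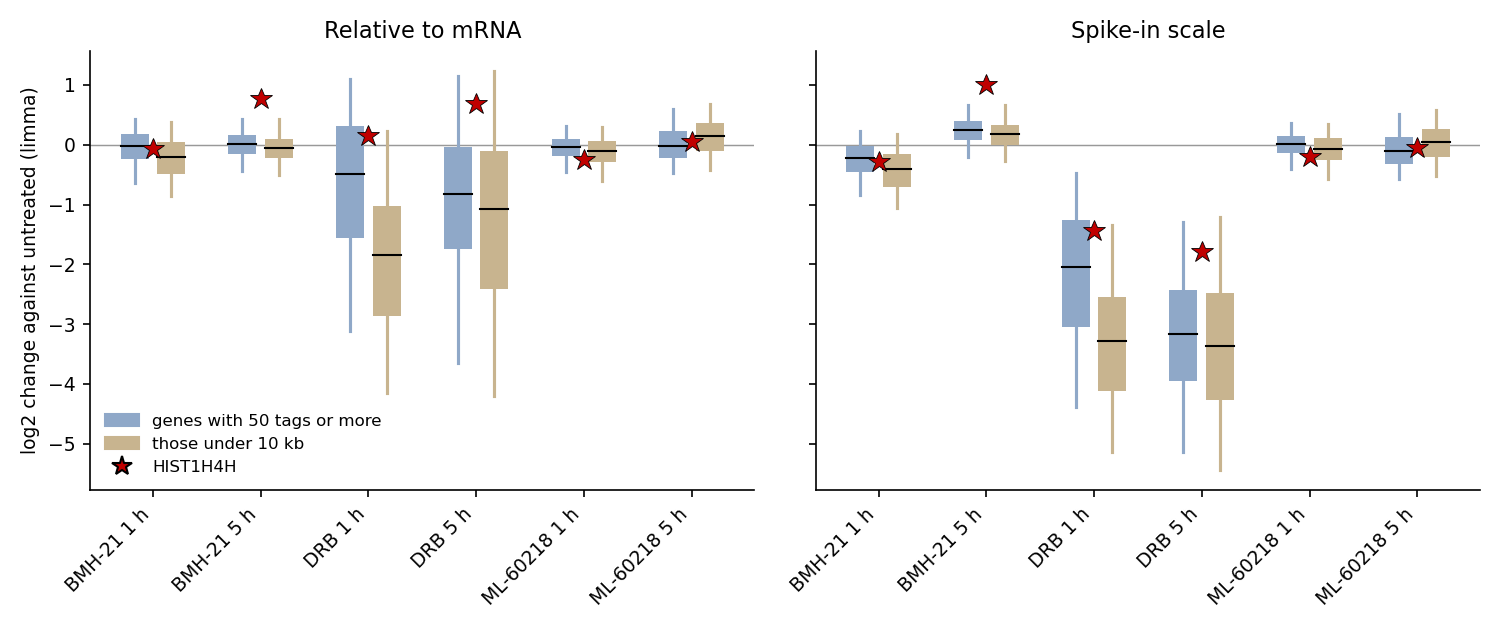
Log2 change against untreated cells of HIST1H4H (stars) beside 3216 genes with at least 50 tags in each untreated library and the 533 of them under 10 kb, relative to mRNA (left) and on the spike-in scale (right). Boxes span the 25th to 75th percentiles with the median as a line, and whiskers the 5th to 95th; HIST1H4H lies above the whiskers after 5 h of BMH-21 and above the upper end of the short genes' box after 1 h and 5 h of DRB.

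After ML-60218, HIST1H4H passed no test against untreated cells at either time, with intervals that allow changes of under 1 log2 unit each way. With ML-60218 it stood, on the spike-in scale, at 78.4% and 95.6% after 1 h and at 92.5% and 100.2% after 5 h. The log2 difference from untreated cells was -0.21 ± 0.22 after 1 h (95% interval -0.68 to 0.26; limma, adjusted p = 1) and -0.05 ± 0.22 after 5 h (95% interval -0.53 to 0.42; limma, adjusted p = 0.950). Relative to mRNA the differences were -0.25 ± 0.20 after 1 h (limma, adjusted p = 1) and 0.04 ± 0.20 after 5 h (limma, adjusted p = 0.995; SE, n = 2 each throughout).

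Limma called 0% of genes relative to mRNA at both times of ML-60218, with 140 genes after 1 h and 433 after 5 h at an unadjusted p under 0.05. By edgeR, 3 genes (0.0542%) were called after 1 h and 352 (6.36%) after 5 h, and by DESeq2 9 and 473, HIST1H4H not among them. With spike-in scaling limma called 0% after 1 h (222 genes at an unadjusted p under 0.05, and 37 genes or 0.669% by edgeR) and 0.0181% after 5 h. Between the 2 times of ML-60218, HIST1H4H differed by 0.30 ± 0.20 relative to mRNA (SE, n = 2 each; limma, adjusted p = 0.623, 0.163% of genes called) and by 0.15 ± 0.22 on the spike-in scale (limma, adjusted p = 0.746, 1.5% of genes called).

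The Pol I and Pol III inhibitors were also compared with each other at matched times. After 5 h, HIST1H4H was higher with BMH-21 than with ML-60218 by a log2 difference of 0.72 ± 0.20 relative to mRNA (SE, n = 2 each), which limma did not call (adjusted p = 0.632, 0.0362% of genes called) and edgeR did (0.73, adjusted p = 0.0296, 3.45% of genes called). On the spike-in scale the difference was 1.05 ± 0.22 (SE, n = 2 each), again not called by limma (adjusted p = 0.0963, 0.0181% of genes called) but by edgeR (adjusted p = 7.08e-05, 28.4% of genes called). It exceeded that of 99.6% of the 3216 genes with at least 50 untreated tags on both scales. After 1 h the differences were 0.18 ± 0.20 relative to mRNA (limma, adjusted p = 1.00) and -0.08 ± 0.22 on the spike-in scale (limma, adjusted p = 0.940). Limma called 0% of genes after 1 h on both scales, with 171 genes at an unadjusted p under 0.05 relative to mRNA and 530 on the spike-in scale. By edgeR 1 gene (0.0181%) was called relative to mRNA and 445 (8.04%) on the spike-in scale, and by DESeq2 58 relative to mRNA.

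HIST1H3E, a gene for the partner core histone H3, is the only other gene in the table named as a replication-dependent histone gene and lies 53581 bases away, at chr6:26224199-26227473 on the plus strand. It had far fewer tags, 307.5 and 226 after 5 h of BMH-21, 11 and 9 after 5 h of DRB, 56 and 93 in untreated cells, and 3 and 1 without 4-SU. Scaled to the spike-in, it stood at 218% and 197% after 5 h of BMH-21, against 76.7% and 93.5% after 1 h. The 5 h libraries were above the 1 h libraries and above the untreated value, as they were for HIST1H4H. After DRB it stood at 19.7% and 67.1% at 1 h and 54.2% and 49.5% at 5 h, all below untreated.

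Relative to mRNA, HIST1H3E after 5 h of BMH-21 differed from untreated cells by 0.79 ± 0.46 on the log2 scale (SE, n = 2 each), which passed neither limma (adjusted p = 1.00) nor edgeR (adjusted p = 0.0521). Against BMH-21 1 h, edgeR called it higher by 0.88 (adjusted p = 0.00525) and limma did not (0.82, adjusted p = 0.728). After 5 h of DRB its share rose by a log2 value of 1.49 ± 0.46 (SE, n = 2 each; limma, adjusted p = 0.0153), on 11 and 9 tags. Limma thus called 2 of the 2 histone genes higher after 5 h of DRB (25.6% of all genes called higher, list median 1.09, all genes -0.43). After 5 h of BMH-21 it called 0 of 2, beside 0% of all genes (list median 0.78, all genes 0.01). There 1 had an unadjusted p under 0.05 by limma and edgeR called 1 higher, beside 1.61% of all genes.

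**Figure D4:**
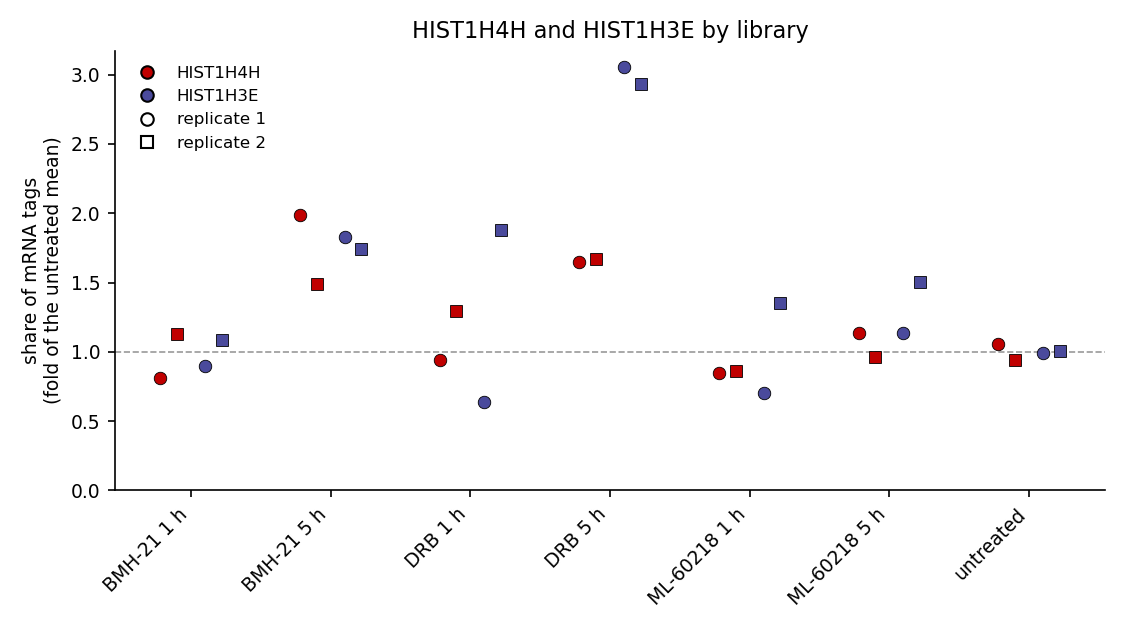
Share of mRNA-table tags in HIST1H4H and HIST1H3E for each labelled library, divided by the mean of the 2 untreated libraries (dashed line at 1). Circles are replicate 1 and squares replicate 2; both genes lie above the line in every BMH-21 5 h and DRB 5 h library, and HIST1H3E scatters more, with 6 and 30 tags after 1 h of DRB.

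Genes of histone supply other than these were looked up in the same comparisons. Of the 12 replacement histone genes, which are made outside S phase too, the 1 in the table was CENPA, the centromeric form of H3. Its share differed by 0.16 ± 0.23 after 5 h of BMH-21 against untreated cells (limma, adjusted p = 1.00). Against 1 h of BMH-21 it rose on the spike-in scale, by 0.90 (SE 0.23; limma, adjusted p = 0.0288), and relative to mRNA by edgeR, by 0.48 (adjusted p = 0.0298), but was not called there by limma (0.46, adjusted p = 0.626). Relative to mRNA, CENPA fell by 1.62 on the log2 scale after 1 h of DRB (SE 0.23; limma, adjusted p = 0.000269), while HIST1H4H did not pass. Limma called 28.6% of all genes lower there. On the spike-in scale limma called both lower at that time, by -3.15 for CENPA and -1.45 for HIST1H4H, as it did 69.5% of all genes. After 5 h of DRB, CENPA stood at 0.56 relative to mRNA and was not called by limma. From 1 h to 5 h of DRB limma called CENPA higher, by 2.17 relative to mRNA and 1.26 on the spike-in scale, as it did 32.6% and 14% of all genes.

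Of 25 genes listed for histone gene transcription and histone mRNA processing, 7 were in the table and tested. After 5 h of BMH-21, where limma called no gene of the table, the list median was -0.01. By limma 1 of 7 had an unadjusted p under 0.05, beside 195 of the 5532 genes tested. EdgeR called 2 of 7 higher, beside 1.61% of all genes. After 1 h of DRB limma called 4 of 7 lower, where 28.6% of all genes were (median -1.25, all genes -0.15). After 5 h it called 3 lower and 1 higher, near the 39.1% lower and 25.6% higher of all genes (median -1.08, all genes -0.43). These counts and the changes below are relative to mRNA. On the spike-in scale limma called 7 of 7 lower at both times of DRB, beside 69.5% and 76.3% of all genes. CSTF2T, a paralogue of a cleavage stimulation factor subunit, fell by 3.18 on the log2 scale after 1 h (SE 0.22; limma, adjusted p = 2.98e-06). CCNT1, the cyclin partner of the CDK9 kinase that releases paused Pol II, fell by 1.87 after 5 h (SE 0.19; limma, adjusted p = 1.71e-05). LSM10, part of the U7 particle that guides histone mRNA 3′ cleavage, fell by 1.69 after 1 h (SE 0.35; limma, adjusted p = 0.00252).

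Of 20 histone chaperone and H4 acetylation genes, 4 were tested. After 5 h of BMH-21 limma and edgeR each called 0 of 4, beside 0% and 3.36% of all genes (median -0.04, and 0 at an unadjusted p under 0.05 by limma). After 5 h of DRB limma called 2 of 4 higher and 2 lower relative to mRNA (median 0.08), beside 25.6% higher and 39.1% lower of all genes. On the spike-in scale it called 4 of 4 lower, beside 76.3% of all genes. CHAF1B, a subunit of the chromatin assembly factor that places new H3 and H4 on replicated DNA, rose by 1.61 relative to mRNA (SE 0.25; limma, adjusted p = 0.000259). NAP1L1, a nucleosome assembly protein, rose by 0.76 relative to mRNA (SE 0.13; limma, adjusted p = 0.000385). ATRX, which works with a chaperone of histone H3.3, fell by 1.03 relative to mRNA (SE 0.13; limma, adjusted p = 5.84e-05).

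S phase genes were listed because replication-dependent histone genes are known to be active in that phase. Of 20 listed, 9 were tested. After 5 h of BMH-21 limma and edgeR each called 0 of 9, beside 0% and 3.36% of all genes (median -0.08, all genes 0.01). By limma 0 had an unadjusted p under 0.05. Relative to mRNA, limma called 2 higher and 3 lower after 1 h of DRB (median -0.22), near the 15.3% higher and 28.6% lower of all genes. After 5 h it called 3 higher and 1 lower (median 0.18), beside 25.6% higher and 39.1% lower of all genes. CDC6, which loads the replicative helicase, fell by 1.89 relative to mRNA after 1 h of DRB (SE 0.22; limma, adjusted p = 7.85e-05). CDC45, a subunit of the active helicase, rose by 1.36 relative to mRNA after 1 h of DRB (SE 0.17; limma, adjusted p = 0.000104). E2F2, a transcription factor of S phase entry, rose by 0.59 relative to mRNA after 5 h of DRB (SE 0.10; limma, adjusted p = 0.00058). On the spike-in scale limma called 8 of 9 lower after 1 h and 9 of 9 after 5 h, E2F2 among them, and 0 higher. Of all genes it called 69.5% and 76.3% lower there. For BMH-21 5 h over 1 h relative to mRNA, edgeR called 3 of 9 lower (median -0.23), where 7.72% of all genes were. Limma called 0 there, beside 0.0181% of all genes, with 3 at an unadjusted p under 0.05. The share of cells in S phase was not measured in these files.

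The other lists were counted in the same comparison of BMH-21 5 h with 1 h relative to mRNA. Limma called none of their genes, beside 0.0181% of all genes. By edgeR 0 of 7 genes for histone gene transcription and processing were called, beside 18.1% of all genes (0 at an unadjusted p under 0.05 by limma and 2 by edgeR). Of the chaperone and acetylation genes edgeR called 1 of 4 lower, beside 7.72% of all genes, with 1 at an unadjusted p under 0.05 by limma. Within 1 Mb of HIST1H4H it called 2 of 11 higher, HIST1H3E among them, beside 10.4% of all genes, with 0 at an unadjusted p under 0.05 by limma.

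On chromosome 6, within 1 Mb of HIST1H4H, 13 other genes are in the table and 11 were tested, HIST1H3E among them. After 5 h of BMH-21 limma and edgeR each called 0 of 11, beside 0% and 3.36% of all genes (median 0.11, and 0 at an unadjusted p under 0.05 by limma). Relative to mRNA, limma called 4 higher and 4 lower after 5 h of DRB (median -0.13), beside 25.6% higher and 39.1% lower of all genes. HIST1H3E was among those called higher. On the spike-in scale limma called 0 higher and 8 lower, beside 76.3% lower of all genes. BTN2A1, a butyrophilin gene and the neighbour with the most untreated tags, had 0 and 1 tags after 5 h of DRB, against 236.5 and 380 in untreated cells, and was called lower relative to mRNA (limma, adjusted p = 0.000111). PRSS16, which encodes a serine protease, had 2 and 1 tags, against 87 and 113, and was called lower too (limma, adjusted p = 0.00205). BTN2A2, another butyrophilin gene, had 2 and 2 tags, against 73.5 and 121, and fell by 1.11 relative to mRNA (SE 0.26; limma, adjusted p = 0.00306). Changes this far down rest on few tags and on the added 0.5. HMGN4, a nucleosome-binding protein gene, stood at -0.13 ± 0.29 (SE; limma, adjusted p = 0.706).

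The gene most like HIST1H4H over the 6 comparisons with untreated cells was HSPH1, which encodes a large heat shock protein, at chr13:31135049-31161927. Likeness was the root mean square distance of the 6 log2 differences relative to mRNA, and it was 0.109 for HSPH1 against a median of 0.910 over 3215 genes with at least 50 tags in each untreated library. Its differences were 0.83 after 5 h of BMH-21, 0.01 after 1 h of DRB and 0.69 after 5 h of DRB, beside 0.76, 0.14 and 0.69 for HIST1H4H. The next 5 genes, BUB1, MINPP1, GRIPAP1, CLTB and DNAJB6, lay at distances of 0.213 to 0.254, and none of them exceeded 0.42 after 5 h of BMH-21. Pearson's r over the 14 labelled libraries was 0.85 for HSPH1 and 0.60 to 0.78 for the other 5, and the median over the 3215 genes was -0.21. All these comparisons share the same untreated libraries and scaling factors, and the values are given as a description.

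**Figure D5:**
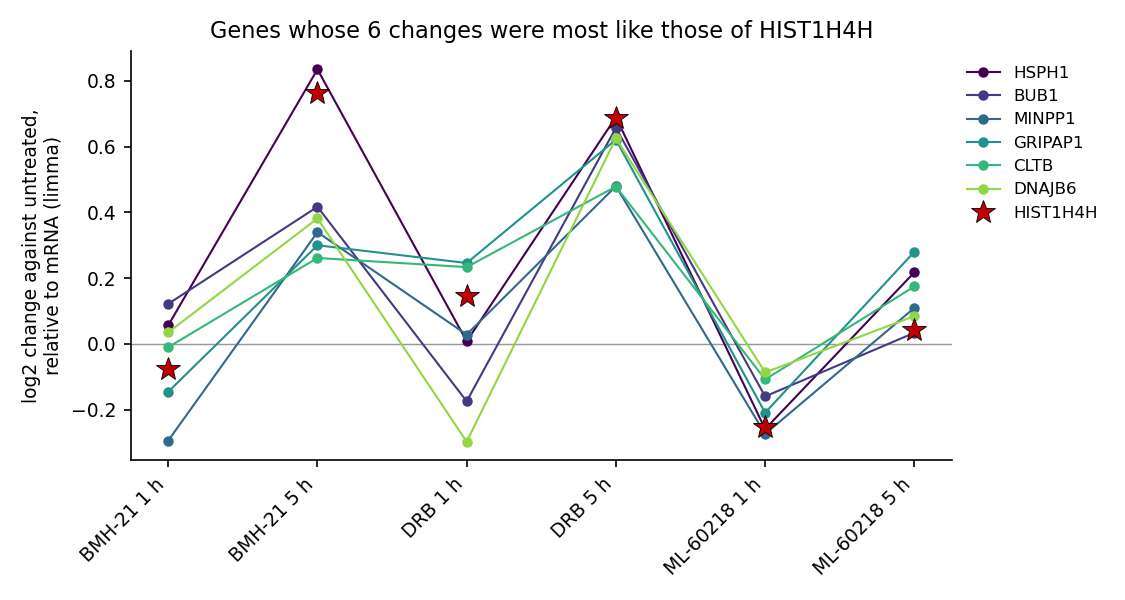
Log2 change against untreated cells, relative to mRNA (limma), of HIST1H4H (stars) and of the 6 genes with the smallest root mean square distance from it over the 6 inhibitor groups. HSPH1 reaches 0.83 after 5 h of BMH-21, beside 0.76 for HIST1H4H, while the other 5 genes stay at 0.42 or below there.

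For the cell line, 9 blood lineage genes were looked up. The table holds 3 of them, all near 0 in untreated cells: GATA1 with 8 and 12.5 tags, ITGAM with 3 and 4, and SPI1 with 2.5 and 4.5. These tags do not test the cell line label, since genes absent from the table, whose shortest region is 3002 bases, were not measured.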

How the data were processed

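TT-chem-seq was run on 16 libraries of HAP1 cells. Per the submitters' processing notes, reads were handled with STAR 2.7.7a and HOMER, besides Trim Galore 0.6.5 and FastQC 0.11.9, and the builds named are GRCh38 and, for yeast, R64. Per the file headers, the deposited signal columns hold HOMER tags scaled to a total of 10000000 per library, with no strand option, and overlapping or antisense genes can therefore not be separated. The authors headed these columns as raw counts. Multiplied back by the header totals, 91787 of 91787 values under 200 tags were multiples of 0.5 tag within 0.005 tags per 10M. For each library the authors deposited a ratio column too, in which its spike-in scaled value is divided by that of untreated cells with the same number, and from which 1 factor per library was taken. The rRNA and tRNA tables were not used.

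Relative to mRNA, values were divided by the mRNA-table sum times a TMM factor. The test was limma with a trend in the variance, on log2(value + 0.5), with group means over 14 labelled libraries, or 16 for the comparison with no 4-SU. Genes were kept by filterByExpr with a minimum of 10 tags (5532 genes, or 5769). P-values were adjusted by Benjamini-Hochberg at 0.05. On the spike-in scale the replicate number was a block, because the deposited ratios pair libraries by number. Because the deposited values were scaled and not raw counts, limma was the main test, and edgeR's quasi-likelihood test and DESeq2 ran on recovered tags, rounded, as alternatives. Where DRB left a gene only a few tags, its call rests partly on the added 0.5. Apart from these results, limma's test was also checked on simulated tags with known changes. It missed most changes put in after 5 h of BMH-21. After 5 h of DRB it made false calls, none of them in genes with at least 50 tags there. The simulated tags came from the untreated means at the real depths, with the same fixed spread for all genes and no broad change under DRB. They therefore do not give the error rates of the real comparisons. Versions were Python 3.11.15, scipy 1.17.1, DESeq2 1.42.0, edgeR 4.0.16, limma 3.58.1 and R 4.3.3.

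The gene, the lists, the tests and the naming rule were chosen with earlier results of these data known. Histone genes and genes within 1 Mb were ranked by untreated tags, up to 8 each, other lists by the smallest adjusted p over the 6 comparisons with untreated cells, up to 3 each, with the 6 most alike genes. Library totals ran from 14083584 to 93919776.5 tags.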

Additional observations from a re-analysis of the deposited data

Results flagged for a closer look

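The effect of BMH-21 on HIST1H4H differed between its 2 times on the spike-in scale, by a log2 value of 1.28 for 5 h over 1 h (limma, adjusted p = 0.00629), with both 5 h libraries above both 1 h libraries. The effect of DRB differed between its 2 times relative to mRNA, by 0.54 (limma, adjusted p = 0.0397), while on the spike-in scale the same pair differed by -0.35 (limma, adjusted p = 0.198). Groups of 2 libraries are too small for a check of single outlying samples.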

How the results depend on the processing

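Values are log2 differences of HIST1H4H, and the cause of each move was not tested unless the setting itself gives it. Scaling by library total moved most of them, since the mRNA share of a library differed between groups. Relative to untreated cells it gave 1.27 and 1.76 for BMH-21 1 h and 5 h, -1.42 and -1.94 for DRB 1 h and 5 h and -0.091 for ML-60218 5 h, with 1.66 and 1.85 for BMH-21 over ML-60218 at 1 h and 5 h and -0.51 for DRB 5 h over 1 h. With that scaling limma called all of these except ML-60218 5 h. No other setting relative to mRNA called BMH-21 1 h or DRB 1 h over untreated, or BMH-21 over ML-60218 at 1 h. The BMH-21 5 h difference also passed with edgeR (0.77), DESeq2 (0.76), one variance for each group (0.76) and the 4 libraries alone (0.76), and on the spike-in scale with the 4 libraries alone (1.00) and edgeR (1.02). Its adjusted p over all alternatives other than left-out libraries ran from 0.000209 to 0.685 relative to mRNA. For BMH-21 5 h over 1 h relative to mRNA, edgeR (0.84), DESeq2 (0.80), one variance for each group (0.84) and the 4 libraries alone (0.84) passed. For BMH-21 over ML-60218 at 5 h, edgeR (0.73), DESeq2 (0.70) and one variance for each group (0.72) also passed, and on the spike-in scale the 4 libraries alone (1.05) and edgeR (1.08).

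Calls were lost in other comparisons. DRB 5 h over untreated relative to mRNA was not called without the filter (0.69, adjusted p = 0.0559) or with one variance for each group (0.69, adjusted p = 0.267). DRB 5 h over 1 h was not called in those settings (0.54 in both) or with the 4 libraries alone (0.54). Untreated over no 4-SU was not called with the 4 libraries alone (1.01, adjusted p = 0.0594). BMH-21 5 h over 1 h on the spike-in scale was not called without the filter (1.28, adjusted p = 0.059). By edgeR, the histone genes called numbered 1 for BMH-21 5 h over untreated, 2 for BMH-21 5 h over 1 h, 1 for DRB 5 h over 1 h and 1 for BMH-21 over ML-60218 at 5 h, against 0, 0, 2 and 0 by limma. Of the 5532 genes tested, edgeR called 3.36%, 18.1%, 36.9% and 3.45% in the same order, and limma 0%, 0.0181%, 58.7% and 0.0362%. In numbers of genes, edgeR called 186 and limma 0 for BMH-21 5 h over untreated, and 2039 and 3248 for DRB 5 h over 1 h.

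Leaving out 1 library at a time gave these ranges relative to mRNA: BMH-21 1 h over untreated -0.32 to 0.17, DRB 1 h over untreated -0.14 to 0.43, DRB 5 h over untreated 0.61 to 0.76, ML-60218 5 h over untreated -0.070 to 0.16, untreated over no 4-SU 0.57 to 1.45, DRB 5 h over 1 h 0.26 to 0.82 and BMH-21 over ML-60218 at 1 h -0.066 to 0.42. On the spike-in scale they were -0.20 to 0.093 for ML-60218 5 h over untreated, 0.96 to 1.61 for BMH-21 5 h over 1 h, -0.71 to 0.0095 for DRB 5 h over 1 h and -0.32 to 0.17 for BMH-21 over ML-60218 at 1 h. A lone remaining library is assumed to vary like the other groups. Spike-in values for the comparisons between inhibitor groups, and edgeR on that scale, were added after seeing the data.

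With the replicate number as a block, no call relative to mRNA changed, and the adjusted p for DRB 5 h over untreated was 0.0156 at 0.69. Over genes, deviations of replicate 1 from its group mean correlated between groups at -0.0255 to 0.266 (21 pairs of groups, median 0.0469, 7 over 0.1). No cut-off was set for these values, so they do not decide whether same-numbered libraries are paired cultures. Without the block, no call on the spike-in scale changed. Depth differed widely: HIST1H4H had 633.5 and 548 tags after 5 h of DRB, and 800 and 299.5 without 4-SU, and the part of depth was not tested.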
